A study of Homo sapiens with 24 samples.

Results

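H4K20me3, histone H4 trimethylated on lysine 20, was compared between the 2 control states of a CUT&RUN study of HN-SCC-151, an established line from a squamous carcinoma of the head and neck, negative for HPV and called wild type in the labels. One state was 4 libraries of cells given control siRNAs (siNC), the other 3 libraries of cells given DMSO, and both treatments lasted 6 days. In neither was an H4K20 methyltransferase targeted. These 7 libraries were all those of the series, of 24 samples in all, whose titles give siNC or DMSO together with H4K20me3. Since 3 dishes per condition are described for 4 siNC libraries, some of these may share a dish, and p-values measure the spread between libraries. The siNC peaks were called against an IgG library with no treatment in its label and the DMSO peaks against an IgG library of DMSO cells. Treatment, IgG library and experimental arm change together, so their parts in any difference cannot be told apart.

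Methyltransferases of the SUV420H family (KMT5B and KMT5C) add the last methyl groups to lysine 20, largely where H3K9 methylation has recruited HP1. The mark is best known from silent constitutive heterochromatin: pericentromeric repeats, transposable elements and clusters of zinc finger genes. In CUT&RUN an antibody directs a nuclease to the marked chromatin, and the released fragments are sequenced. A non-targeting siRNA needs transfection, whereas DMSO is the solvent in which a small inhibitor is dissolved, so each is the reference for its own kind of treatment.

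Cells given siNC carried the mark over more of the genome, in more and shorter domains, while cells given DMSO carried fewer and wider ones. Peaks covered 183, 191, 193 and 183 Mb in siNC replicates 1 to 4 and 153, 146 and 145 Mb in DMSO replicates 1 to 3. The groups did not overlap. The means were 188 Mb ± 5.49 (SD, n = 4) and 148 Mb ± 4.29 (SD, n = 3), a difference of 26.7%. Peaks numbered 14270.2 ± 420.2 with siNC and 8739 ± 269 with DMSO, 63.3% more. Wide peaks went the other way: those of 50 kb or more numbered 288 to 305 with siNC and 417 to 458 with DMSO, 31.9% fewer (means 296 ± 7.04 and 434 ± 21.4). Peaks of 100 kb or more numbered 61 to 66 with siNC and 130 to 147 with DMSO. The widest peak of a library measured 407 to 451 kb with siNC and 617 to 702 kb with DMSO. Peaks of 50 kb or more held 13.9% ± 0.201 of covered bases with siNC and 31.1% ± 1.31 with DMSO. Most of the added siNC peaks were short. Peaks under 10 kb numbered 7103 to 7559 against 4104 to 4576, and those of 10 to 20 kb numbered 4819 to 5204 against 2666 to 2750.

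**Figure D1:**
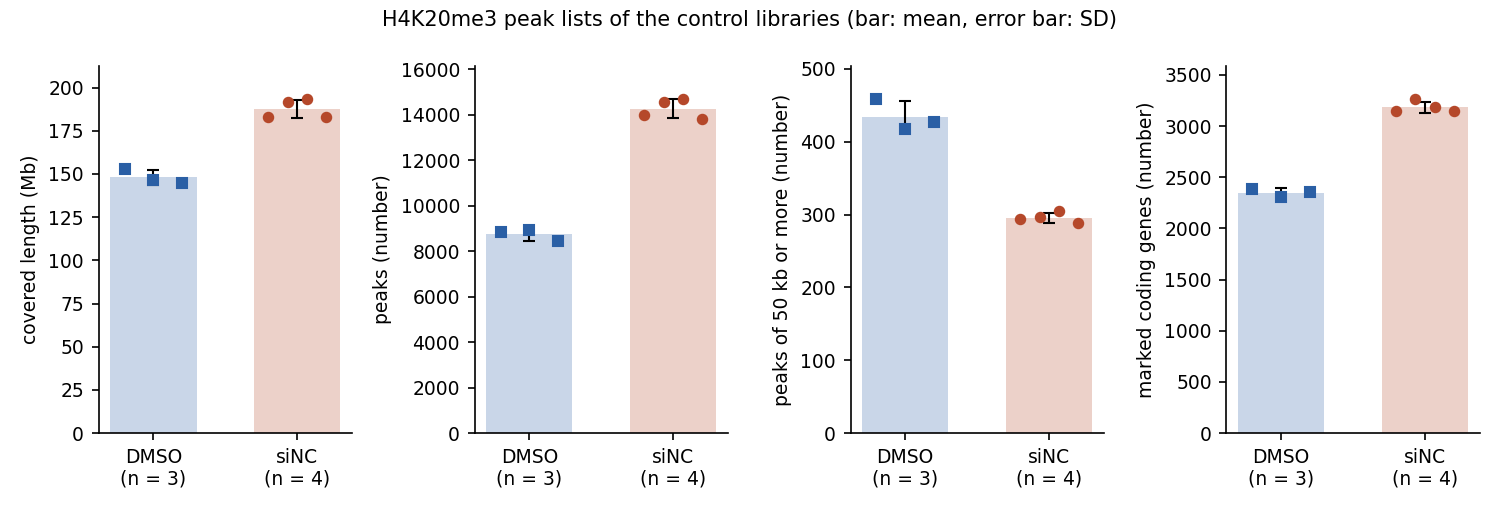
Covered length, number of peaks, number of peaks of 50 kb or more, and number of marked coding genes in each H4K20me3 library (points), with the group mean (bar) and SD (error bar) for 3 DMSO and 4 siNC libraries. The siNC libraries lie above every DMSO library in covered length, peaks and marked genes, and below every DMSO library in wide peaks.

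Covered length, number of peaks, number of wide peaks and number of marked genes each gave an exact two-sided permutation p of 0.0286, the smallest that 4 libraries against 3 can give (adjusted p = 0.0357 over 5 library measures). Median peak width, 9 kb in every siNC library and 9 or 10 kb with DMSO, did not pass (exact two-sided permutation p = 0.143). Only the widest peaks of each library were then kept, up to the covered length of the shortest list. The number of peaks now differed by -35.4 and the number of marked genes by -127.7, both the other way round. This rule removes no peak of 50 kb or more. The difference of -138.2 wide peaks (exact two-sided permutation p = 0.0286, adjusted p = 0.0571) is therefore that of the full lists and no further check. The lists hold no read counts, so the depth of the libraries is unknown and its part in these differences was not tested.

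The 2 control states shared much, but far from all, of the length covered in every library of a state. The Jaccard index of covered bases averaged 0.772 between siNC libraries, 0.750 between DMSO libraries and 0.475 between the states, where the highest pair reached 0.489. In bins of 1 kb, 146.6 Mb were covered in every siNC library and 117.7 Mb in every DMSO library. Of these, 86.5 Mb were covered in all 7, which is 59.0% of the siNC length and 73.5% of the DMSO length. A further 37.6 Mb were siNC-only (covered in every siNC and no DMSO library) and 17.3 Mb were DMSO-only (the reverse).

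Wide DMSO domains were seldom absent from siNC cells but were interrupted there. There were 341 stretches of 50 kb or more covered in every DMSO library, 36.3 Mb in all. Peaks of the single siNC libraries covered 80.1% to 80.6% of that length in 2.28 to 2.34 pieces per stretch on average. They covered 41 to 49 of the stretches in full and left 1 to 3 without any peak. Of the 220 stretches of that width covered in every siNC library (19.2 Mb), the DMSO libraries covered 91.9% to 92.9% of the length and 127 to 139 stretches in full.

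Whole domains present in one state only were mostly siNC domains. The peaks of the 7 libraries merged into 18047 union regions, of which 3213 (17.8%) were siNC-only and 428 (2.37%) were DMSO-only. A peak in every siNC library was found in 9749, in every DMSO library in 5826 and in all 7 in 4903. The median distance of siNC-only regions to the nearest DMSO peak was 108 kb, and 1653 of them (51.4%) were more than 100 kb away. For DMSO-only regions the median distance to the nearest siNC peak was 19 kb, with 143 (33.4%) within 10 kb and 57 (13.3%) beyond 100 kb. Distances to DMSO and to siNC peaks are not on the same footing, since the DMSO lists held fewer peaks (means 8739 and 14270.2). No distance for other regions was computed. Median widths were 10 kb and 11 kb, against 18 kb for regions with a peak in all 7. A coding gene overlapped 33.1% of the siNC-only and 39.3% of the DMSO-only regions, beside 33.3% of all union regions. Both counts depend on the rule. With only the widest peaks up to equal covered length, 862 regions were siNC-only and 911 DMSO-only; without DMSO replicate 3 the DMSO-only regions numbered 649.

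The 5 widest siNC-only regions lay on chromosome 14, the widest at chr14:26693001-26922000 (229 kb, no coding gene). The widest elsewhere was chr15:25093001-25169000 in the imprinted Prader-Willi domain, with 60, 68, 62 and 42 kb under peaks in siNC replicates 1 to 4 and none with DMSO. The widest DMSO-only region, chr13:85260001-85322000, held no coding gene and carried 47, 58 and 30 kb in DMSO replicates 1 to 3. The next lay inside ANKRD30B, which encodes an ankyrin repeat protein (chr18:14836001-14892000; 53, 54 and 54 kb). One at chr9:22128001-22174000 carried 34, 39 and 35 kb and held no coding gene, and one inside RAD51B (chr14:67937001-67980000) carried 41, 43 and 40 kb.

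The added siNC length was spread over most chromosomes but unevenly. Covered length was higher with siNC on 20 of 23 chromosomes (exact two-sided permutation p = 0.0286 each, adjusted p = 0.0329) and lower on none; chromosomes 11, 19 and 21 did not pass. The highest ratio was that of chromosome 14, at 9.68, 11.2, 11.9 and 9.10 Mb with siNC and 3.75, 3.65 and 3.67 Mb with DMSO (2.84 times). Without that chromosome the whole length was 177 Mb ± 4.22 and 144 Mb ± 4.24, 22.6% higher (exact two-sided permutation p = 0.0286, n = 4 against 3). Chromosomes 16, 22, 15 and 4 followed, at 1.64, 1.59, 1.58 and 1.56 times. On chromosome 4, siNC libraries held 12.1 to 13.4 Mb and DMSO libraries 7.80 to 8.52 Mb. Chromosome 19, which carries many zinc finger gene clusters, held 6.49 to 6.90 Mb with siNC and 6.63 to 7.35 Mb with DMSO, and the groups overlapped (exact two-sided permutation p = 0.257, adjusted p = 0.269). As a share of all covered bases it went from 4.69% ± 0.144 with DMSO to 3.56% ± 0.0648 with siNC (exact two-sided permutation p = 0.0286, adjusted p = 0.0365, n = 4 against 3, lower in all 4 siNC libraries). By share, 8 chromosomes were higher with siNC (4, 5, 8, 12, 14, 15, 16 and 22) and 10 lower (1, 2, 3, 6, 7, 11, 18, 19, 21 and X). With equal covered length none of these shares passed (exact two-sided permutation test, smallest adjusted p = 0.0505), and covered length was higher on 6 chromosomes and lower on 8.

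**Figure D2:**
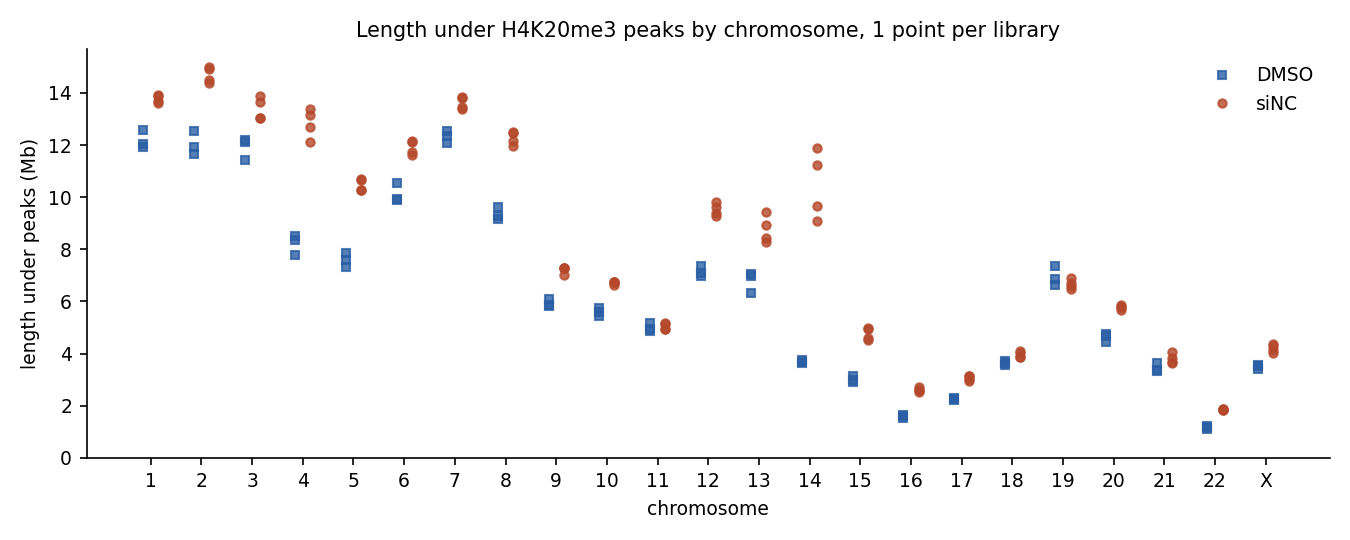
Length under H4K20me3 peaks (Mb) on each chromosome, 1 point per library, 3 DMSO (squares) and 4 siNC (circles). The groups overlap on chromosomes 11, 19 and 21, and chromosome 14 holds 9.10 to 11.9 Mb with siNC against 3.65 to 3.75 Mb with DMSO.

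A coding gene counted as marked if 200 bp or more of its annotated span, extended by 2 kb at both ends, lay under the peaks of a library. Marked genes numbered 3146, 3260, 3185 and 3148 with siNC and 2385, 2306 and 2359 with DMSO, of 19866, and 1668 were marked in all 7. Of all coding genes, 651 (3.28%) were siNC-only and 143 (0.72%) were DMSO-only. Marked genes were long in general, with a median span of 74.4 kb for those marked in all 7 libraries and 24.5 kb for all coding genes. The median was 101 kb for siNC-only genes, beside 82.3 kb for genes marked in every siNC library, and 28.7 kb for DMSO-only genes, beside 64 kb for genes marked in every DMSO library. For 1458 genes (7.34%) each siNC library had more covered length than any DMSO library, and for 583 (2.93%) each had less. With equal covered length the order turned, to 175 siNC-only and 281 DMSO-only genes. KMT5B and KMT5C, the H4K20 methyltransferase genes themselves, had no peak in any of the 7 libraries.

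Among siNC-only genes, the longest covered lengths fell in 3 settings: chromosome 14, the Prader-Willi domain of chromosome 15, and single long genes elsewhere. PRKD1, which encodes protein kinase D1 (chr14:29576479-29927847), carried 141, 161, 189 and 125 kb in siNC replicates 1 to 4 and 0 kb in each DMSO library. LRFN5, a synaptic adhesion gene of the same chromosome, averaged 137 kb ± 43.4 (SD, n = 4), and RGS6, a regulator of G protein signalling, 48.5 kb ± 5.20, beside 0.029 kb under a peak of 1 DMSO library. In the Prader-Willi domain SNRPN, an imprinted gene of a spliceosomal protein (chr15:24823637-24978723), carried 93.7, 69, 86.1 and 76.1 kb with siNC and 0 kb in each DMSO library; its span overlaps that of SNURF. GABRG3, a GABA receptor subunit gene of the same chromosome arm, carried 64 to 100 kb with siNC. HORMAD2, a meiotic chromosome axis gene (chr22:30077732-30207456), carried 68, 67, 66 and 63 kb with siNC. TMLHE, the first enzyme of carnitine synthesis (chrX:155489011-155612952), carried 44 to 49 kb, and TENM3, a teneurin adhesion gene, 26 to 59 kb. In VPS13B, which encodes a Golgi-associated lipid transfer protein, replicate 4 with 28 kb stood below the 49 or 50 kb of the others.

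DMSO-only genes carried shorter domains. ANKRD30B led with 66.8, 71 and 73.8 kb in DMSO replicates 1 to 3 and 0 kb in each siNC library. STEAP4, a metalloreductase of inflamed and metabolic tissues (chr7:88270892-88306894), carried 23, 22 and 32 kb. TM4SF4, a tetraspanin-like membrane protein (chr3:149474697-149503394), carried 21.3, 20.3 and 19.3 kb. SLC1A3, the glial glutamate transporter EAAT1, carried 16.4 kb in each DMSO library, and FPR3, a formyl peptide receptor gene whose span overlaps that of ZNF577, 15 to 16 kb. TEX9 (15 to 30 kb), DCBLD1 (16.3 to 26.3 kb), BCAS1 (12.1 to 25.1 kb) and LZTFL1 (12 to 27 kb, overlapping the chemokine receptor gene CCR9) were also among the longest. All the genes of this paragraph were listed at 0 kb in every siNC library.

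Genes marked in both states differed in either direction. PCDH15, a protocadherin of hair cells (chr10:53802771-55627942), carried 169 to 210 kb with siNC and 39 to 53 kb with DMSO, 4.18 times as much. CSMD3, a giant transmembrane gene, averaged 396 kb ± 29.5 and 205 kb ± 19.4, and CAST, which encodes calpastatin, 208 kb ± 9.84 and 99.3 kb ± 9.45. NOVA1, a neuronal splicing factor (143 kb ± 8.46 against 2.67 kb ± 4.62), and MDGA2 (391 kb ± 99.3 against 1.67 kb ± 2.89) lie on chromosome 14 and had a peak in 1 DMSO library. In the other direction, RAD51B, a gene of homologous recombination (chr14:67819779-68683096), carried 162, 148, 146 and 140 kb with siNC and 376, 363 and 341 kb with DMSO. TP63, the master regulator of squamous epithelium (chr3:189596746-189897276), carried 117, 125, 126 and 127 kb with siNC and 234, 229 and 203 kb with DMSO, with no overlap between groups. MYO16 averaged 29.8 kb ± 7.37 against 121 kb ± 8.72, CDH18, a cadherin, 80.9 kb ± 4.32 against 175 kb ± 26.8, and LRMDA 200.2 kb ± 8.22 against 293 kb ± 14.2. Of the RAD51B length, 109 kb were covered in all 7 libraries, as were 99 kb of TP63.

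**Figure D3:**
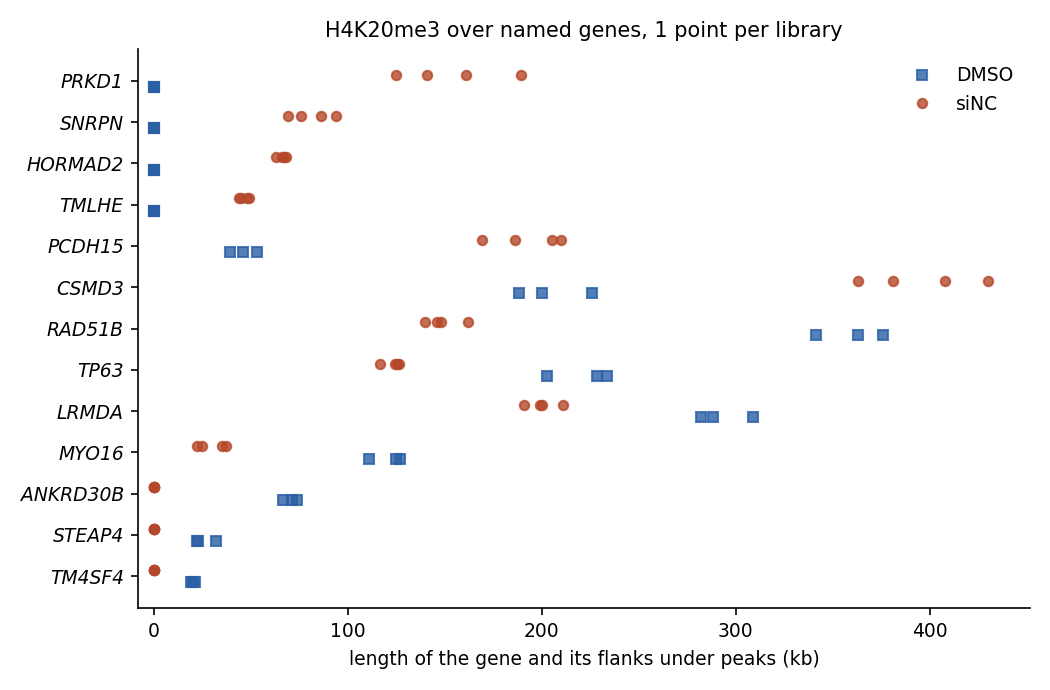
Length of each named gene and its flanks under peaks (kb), 1 point per library, 3 DMSO (squares) and 4 siNC (circles). From top to bottom the genes pass from siNC-only over genes marked in both states to DMSO-only, and the groups do not overlap for any of the genes shown, which were named because of that.

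The gene lists differed in which state marked more members. In the long adhesion and synapse list, 33 to 35 of 54 genes were marked with siNC and 18 to 21 with DMSO. Of the 54, 8 (14.8%, beside 3.28% of all coding genes) were siNC-only, among them CNTN6 (16 to 25 kb), GPC5 and PCDH7. None was DMSO-only. The median member had 3.12 kb more covered length with siNC, beside a median difference of 0 kb over all coding genes. In CNTN6, GPC5, ATP10A and ZIM2 no 1 kb bin was covered in every siNC library. Imprinted genes were marked at 9 to 12 of 37 with siNC and 5 or 6 with DMSO. SNRPN, ATP10A and ZIM2 were siNC-only (8.11%, beside 3.28% of all coding genes). Olfactory receptors were marked at 18 to 24 of 387 with siNC and 9 or 10 with DMSO, and 9 (2.33%) were siNC-only, below the 3.28% of all coding genes. OR4K1, OR4Q3, OR4K17 and OR4K14, neighbours on chromosome 14, led these. OR9A4 was the 1 DMSO-only member (0.258%, below the 0.72% of all coding genes). In antigen presentation, ERAP1 (8.75 kb ± 4.35) and ERAP2 (5.01 kb ± 0.0085), overlapping genes of the aminopeptidases that trim peptides for HLA class I, were siNC-only. They were 2 of 26 genes (7.69%, beside 3.28% of all coding genes), and none of the 26 was marked with DMSO. IFNAR1, a chain of the type I interferon receptor, carried 7 kb in each siNC library and was the only marked gene of 27 interferon ligands and receptors. Its siNC-only share of that list, 3.70%, was near the 3.28% of all coding genes. Of 31 genes of the heterochromatin machinery, 2 (6.45%, beside 3.28% of all coding genes) were siNC-only. They were SETDB1, an H3K9 methyltransferase (6.25 kb ± 1.26), and PHF2, a histone demethylase (9.5 kb ± 2.38).

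Keratins, keratin-associated proteins, the epidermal differentiation complex and chemokines had more marked members in every DMSO library than in any siNC library, although DMSO cells had fewer marked genes in all. For stress and unfolded protein response genes, 1 of 25 was marked in each siNC library and 2 in each DMSO library. Keratins were marked at 11 to 13 of 55 with siNC and 16 to 18 with DMSO. KRT86 (9.69 kb ± 4.93), KRT37 (4.79 kb ± 0.577), KRT12 and KRT32 were DMSO-only, 7.27% of the list beside 0.72% of all coding genes. KRT84 was siNC-only, 1.82% of the list beside 3.28% of all coding genes. Keratin-associated proteins of the hair shaft were marked at 15 or 16 of 94 with siNC and 20 to 23 with DMSO. Of them KRTAP4-8 and KRTAP3-2 were DMSO-only (2.13%, beside 0.72% of all coding genes). In the epidermal differentiation complex, whose genes build the cornified envelope, 17 to 21 of 61 were marked with siNC and 24 to 28 with DMSO. There TCHH, which encodes trichohyalin (9.98 kb ± 0.256), SPRR1A, S100A10 (2.86 kb in each DMSO library) and S100A11 were DMSO-only. They were 6.56% of the list, beside 0.72% of all coding genes. LCE3C was siNC-only, 1.64% of the list and below the 3.28% of all coding genes. Chemokines were marked at 10 or 11 of 46 with siNC and 12 to 14 with DMSO. The neutrophil chemokines CXCL5 (2.34 kb ± 1.15) and CXCL3 and the monocyte chemokine CCL2 were DMSO-only (6.52%, beside 0.72% of all coding genes). The B cell chemokine CXCL13 (11.2 kb ± 2.87) was siNC-only (2.17%, below the 3.28% of all coding genes). In xenobiotic and steroid metabolism the groups overlapped (13 to 15 and 13 to 17 of 73), but 5 genes (6.85%, beside 0.72% of all coding genes) were DMSO-only. They were CYP1B1 (12.6 kb in each DMSO library), the neighbours CYP3A7, CYP3A43 and CYP3A4, and ALDH1A3. GSTM1 and GSTM2, neighbouring glutathione transferases, were siNC-only (2.74%, below the 3.28% of all coding genes). Of 34 squamous epithelial and carcinoma genes, 11 or 12 were marked with siNC and 12 to 14 with DMSO, and the groups overlapped. In 10 of the 34, covered length was less in every siNC library than in every DMSO library, beside 2.93% of all coding genes. It was more in 1 of the 34, beside 7.34% of all coding genes. GRHL2, an epithelial transcription factor, and DSP, which encodes desmoplakin, were among the DMSO-only members (8.82%, beside 0.72% of all coding genes).

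**Figure D4:**
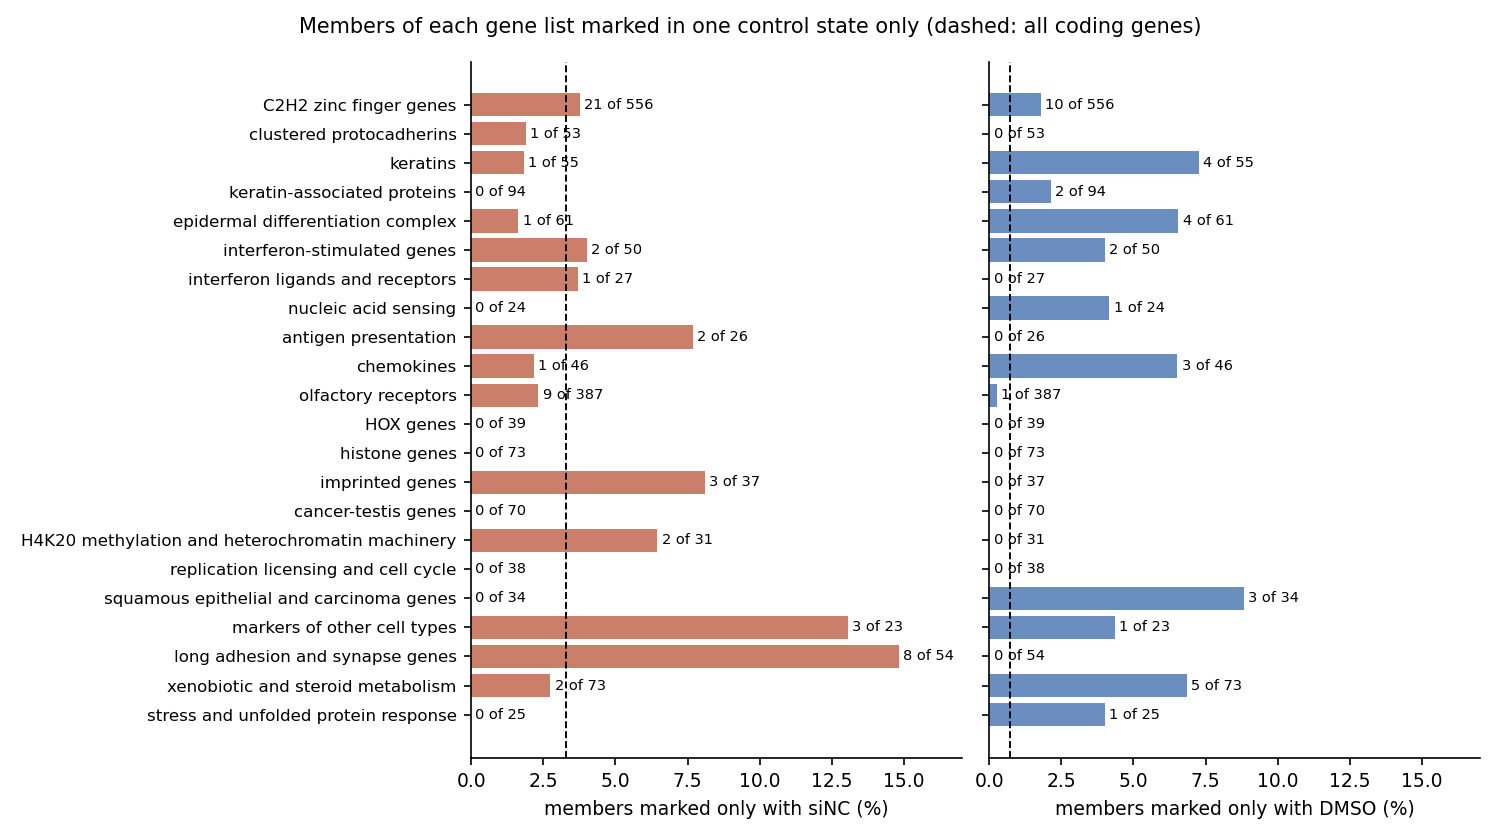
Percentage of the members of each gene list marked only with siNC (left) or only with DMSO (right), with the counts beside each bar and the share of all coding genes dashed (3.28% and 0.72%). The long adhesion and synapse list has the highest siNC-only share, 8 of 54, and the squamous list the highest DMSO-only share, 3 of 34. Of the 22 lists, 8 lie above the siNC-only and 11 above the DMSO-only share of all genes. In a short list 1 DMSO-only member is enough for that, as in the stress list (1 of 25).

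Many of these one-state calls rest on short overlaps. Without the 2 kb flanks, 10 of the 39 named DMSO-only calls ended, among them KRT32, SPRR1A, S100A11, PLSCR1, CXCL5, CCL2, CXCL3, DSP and the pseudokinase gene TRIB3, and 2 of the 39 named siNC-only ones (KRT84 and GSTM1). With only the widest peaks up to equal covered length, 20 of the siNC-only calls ended, among them ERAP1, ERAP2, IFNAR1, SETDB1, PHF2, ATP10A, ZIM2, CNTN6, GPC5, PCDH7, CXCL13, TENM3 and VPS13B, and 5 of the DMSO-only ones (KRT32, IFIH1, OR9A4, CYP3A43 and CYP3A4).

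In the family that H4K20me3 is best known for, both states marked most members. Zinc finger genes of the C2H2 family were marked at 344 to 351 of 556 with siNC and 318 to 326 with DMSO, and 280 in all 7 libraries. Of them 21 (3.78%, near the 3.28% of all coding genes) were siNC-only, led by ZNF454 (19.1 kb ± 2.92) and ZNF354C (17.7 kb ± 0.5). Another 10 (1.8%, beside 0.72% of all coding genes) were DMSO-only, led by ZNF586, ZNF776, ZNF419 and ZNF548 on chromosome 19. Interferon-stimulated genes had 14 or 15 marked with siNC and 12 to 14 with DMSO of 50. OAS2 and GBP1 were siNC-only (4%, near the 3.28% of all coding genes). IFIH1 and PLSCR1 were DMSO-only (4%, beside 0.72%). Genes of nucleic acid sensing had 2 to 4 marked with siNC and 3 or 4 with DMSO of 24. No HOX gene (39) and no histone gene (73) was marked in any of the 7 libraries. Markers of other cell types (endothelium, fibroblasts, leukocytes) were marked at 8 to 10 of 23 with siNC and 4 or 5 with DMSO. The groups did not overlap. PECAM1, DCN and CD14 (3 of 23) were siNC-only (13.04%, beside 3.28% of all coding genes). PTPRC was DMSO-only (4.35%, beside 0.72% of all coding genes), but no 1 kb bin of it was covered in every DMSO library. Marks on such genes do not show which cells were present. Members of a list can share a peak, and the lists are described by counts with no test.

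In the full lists, promoters showed the opposite balance to gene spans. A promoter window, the 250 bases before and 50 after a RefSeq start, was counted where a peak covered it whole. Of 22175 windows of 15842 coding genes, 730, 730, 715 and 707 lay under siNC peaks and 910, 806 and 866 under DMSO peaks. The siNC libraries thus had fewer windows under peaks with more of the genome covered (720.5 ± 11.4 against 861 ± 52.2, 16.3% fewer, lower in all 4 siNC libraries; exact two-sided permutation p = 0.0286, n = 4 against 3, a measure chosen after the data were seen). It was lower both for zinc finger genes (143 to 161 against 164 to 189) and for other genes (560 to 575 against 642 to 721). With only the widest peaks up to equal covered length, the balance was not opposite: marked genes differed by -127.7 and promoter windows by -276.75. One-state windows then numbered 192 DMSO-only and 44 siNC-only. In the full lists, DMSO-only windows numbered 157 (0.708%, in 134 genes) and siNC-only windows 86 (0.388%, in 69 genes). Of the 134 genes, 75 were marked over their span or flanks in every siNC library; where in the gene that cover lay was not tested. Zinc finger genes made up 28 of the 134 and 9 of the 69. By window they were 18.5% of the DMSO-only and 12.8% of the siNC-only, beside 23.2% of the windows under a peak in all 7 libraries and 2.76% of all windows.

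Sequences are shown for 4 DMSO-only and 2 siNC-only promoters to show how unlike they were in CG content. They are the 250 bases before the start from RefSeq (GRCh38.p14), 5′ to 3′ on the strand of the gene, with CG dinucleotides and the motif TATAAA in capitals. CYP3A4, the main drug-metabolising cytochrome P450 of liver (chr7:99784185-99784434, minus strand), and KRTAP4-8, a hair shaft protein gene (chr17:41098143-41098392, minus strand), have 0 and 3 CG and a TATAAA each. S100A10, the annexin A2 partner (chr1:151993860-151994109, minus strand), has 24 CG and ZNF586 (chr19:57769426-57769675, plus strand) 16. Of the siNC-only promoters, GBP1, an interferon-induced GTPase gene (chr1:89065209-89065458, minus strand), has 2 CG and ZKSCAN7 (chr3:44554943-44555192, plus strand) 24.
CYP3A4: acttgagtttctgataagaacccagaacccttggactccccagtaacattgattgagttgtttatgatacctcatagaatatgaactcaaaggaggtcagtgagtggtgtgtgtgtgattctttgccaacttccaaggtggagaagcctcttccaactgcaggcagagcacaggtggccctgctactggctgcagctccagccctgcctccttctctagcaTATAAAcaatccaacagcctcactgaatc
KRTAP4-8: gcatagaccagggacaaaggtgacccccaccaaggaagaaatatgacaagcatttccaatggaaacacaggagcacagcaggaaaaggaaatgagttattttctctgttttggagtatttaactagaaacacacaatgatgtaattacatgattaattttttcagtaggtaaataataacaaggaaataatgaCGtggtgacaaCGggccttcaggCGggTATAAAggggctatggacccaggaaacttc
S100A10: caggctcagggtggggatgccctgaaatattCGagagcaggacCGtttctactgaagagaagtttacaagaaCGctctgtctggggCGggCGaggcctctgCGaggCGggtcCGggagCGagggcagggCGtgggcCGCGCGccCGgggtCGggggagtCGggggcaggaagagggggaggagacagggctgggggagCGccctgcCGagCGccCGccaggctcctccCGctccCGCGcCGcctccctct
ZNF586: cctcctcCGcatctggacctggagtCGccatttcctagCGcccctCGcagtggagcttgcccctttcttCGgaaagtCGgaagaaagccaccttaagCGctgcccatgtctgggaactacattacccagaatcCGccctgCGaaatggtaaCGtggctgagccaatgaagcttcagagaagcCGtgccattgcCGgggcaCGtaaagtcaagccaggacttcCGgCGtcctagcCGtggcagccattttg
GBP1: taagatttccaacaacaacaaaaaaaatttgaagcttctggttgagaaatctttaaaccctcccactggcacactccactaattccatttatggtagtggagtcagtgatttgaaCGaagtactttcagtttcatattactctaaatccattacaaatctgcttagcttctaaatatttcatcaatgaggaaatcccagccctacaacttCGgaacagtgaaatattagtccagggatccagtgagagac
ZKSCAN7: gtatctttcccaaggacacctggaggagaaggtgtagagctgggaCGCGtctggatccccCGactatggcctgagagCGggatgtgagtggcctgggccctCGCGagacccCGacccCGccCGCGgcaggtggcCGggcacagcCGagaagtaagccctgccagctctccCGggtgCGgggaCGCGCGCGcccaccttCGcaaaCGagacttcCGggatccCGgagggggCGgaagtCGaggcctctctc

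Over the full windows of 300 bases, the median was 11 CG in DMSO-only, 12 in siNC-only, 12 in windows under a peak in all 7 libraries and 21 in all windows. TATAAA, searched on both strands, was in 19.1% of DMSO-only, 10.5% of siNC-only, 17.4% of windows under a peak in all 7 libraries and 9.47% of all windows. Such matches describe the letters and are not sites.

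Some genes of inflammation and epithelial growth had a DMSO-only promoter; those named here were chosen after their values were seen. IL1B, the cytokine interleukin 1 beta (chr2:112829751-112836779), had 11 kb under peaks in each DMSO library and 0.25, 1.78, 0 and 0 kb in siNC replicates 1 to 4. IL1R1, its receptor (chr2:102070390-102179874), had 96.6, 91.6 and 96.6 kb with DMSO and 36.6, 38.6, 29.6 and 34.6 kb with siNC. EGFR, the epidermal growth factor receptor (chr7:55019017-55211628), had 12 to 13 kb with DMSO and 0.984 to 7.98 kb with siNC. KLF5, an epithelial transcription factor, averaged 8.54 kb ± 0.888 against 5.28 kb ± 0.5, CXCL1 5.92 kb in each library against 1.86 kb ± 1.52, and S100A12 5.37 kb ± 0.936 against 0.155 kb ± 0.310. INHBA, which encodes the activin subunit beta A, had 6.41 to 14.3 kb with DMSO and none with siNC. The siNC-only promoters included those of the drug efflux pump genes ABCB1 (5.54 kb ± 0.5 against 0 kb) and ABCG2, also named after their values were seen.

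Around 22055 start sites, in a profile added after the data were seen, siNC had the deeper dip. At the start itself 3.33% ± 0.0655 of sites lay under a peak with siNC and 3.95% ± 0.246 with DMSO, and the groups did not overlap (3.25% to 3.39% and 3.68% to 4.17%). At 50 kb before and after it the order turned, to 5.29% ± 0.121 and 4.44% ± 0.132. The value at the start was 0.616 to 0.650 times that at 50 kb with siNC and 0.857 to 0.915 times with DMSO. The start was not the lowest point of either state. The siNC mean was lowest 3 kb downstream, at 2.79%, and the DMSO mean 5 kb downstream, at 2.97%. At 5 kb downstream the siNC mean was 2.95%, so the states were close there.

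**Figure D5:**
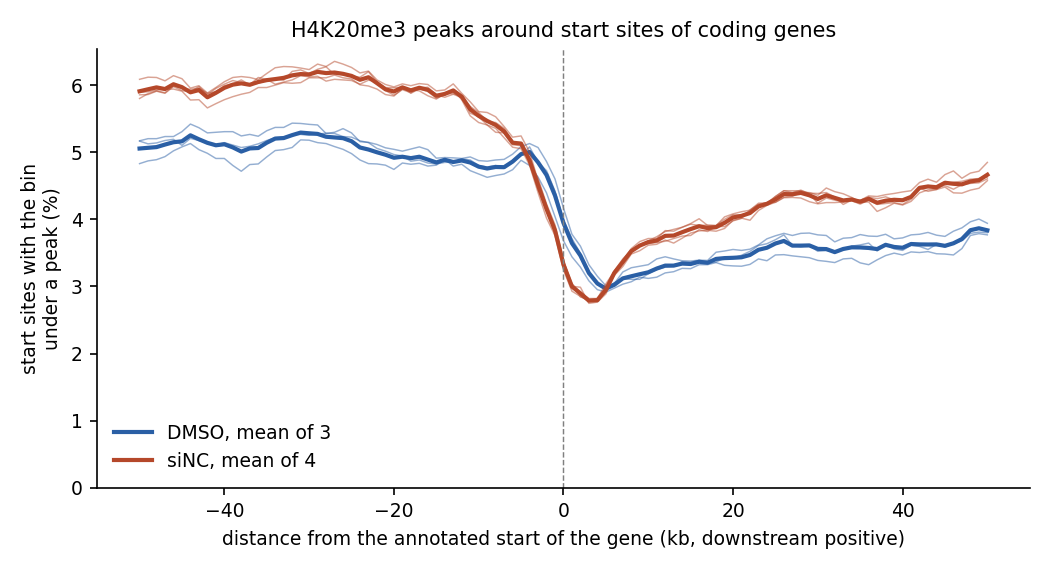
Percentage of 22055 start sites of coding genes with the 1 kb bin at each distance under an H4K20me3 peak, from 50 kb upstream to 50 kb downstream. Thin lines are libraries and thick lines the means of 4 siNC and 3 DMSO libraries. The siNC lines lie above at 50 kb (5.29% against 4.44%) and below at the start (3.33% against 3.95%).

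Libraries outside the comparison, from cells given siRNAs against SUV420H1 (4 libraries, 118 to 130 Mb) or the inhibitor A-196 at 2.5 µM (3 libraries, 79.6 to 107 Mb), held more of the one-state domains of their own arm's control than of the other control. Of the siNC-only regions, 41.1% to 41.9% had a peak in single siSUV420H1 libraries and 7.07% to 11.5% in single A-196 libraries. Of the DMSO-only regions, 7.71% to 13.1% had one with siSUV420H1 and 26.2% to 39.7% with A-196. Of the 651 siNC-only genes, 278 were marked in every siSUV420H1 library and 43 in every A-196 library; of the 143 DMSO-only genes, 5 and 18 were. PRKD1 carried 205 kb ± 19.2 with siSUV420H1 (n = 4) and 25.3 kb ± 13.6 with A-196 (n = 3), and TMLHE 57.5 kb ± 5.69 and 11 kb ± 3.58. Of the 651, 230 were marked in no siSUV420H1 library, among them ERAP1, ERAP2, GBP1, PHF2 and DCN. HORMAD2 had peaks in 2 of the 4 siSUV420H1 libraries (10 and 7 kb), and RGS6 averaged 1.5 kb ± 3 there (n = 4) and 9.34 kb ± 16.2 with A-196 (n = 3). ANKRD30B carried 17 to 62.8 kb with A-196, and 8.83 kb in 1 of the siSUV420H1 libraries. Of the DMSO-only promoter windows, 37 to 59 lay under A-196 peaks and 21 to 28 under siSUV420H1 peaks; of the siNC-only windows, 1 to 8 and 35 to 42 did. The value at the start against that at 50 kb was 0.724 to 0.731 with siSUV420H1 and 0.831 to 0.880 with A-196. The siSUV420H1 lists were called against the same IgG library as siNC and the A-196 lists against that of DMSO, so arm and IgG library cannot be told apart here.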

How the data were processed

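The 7 H4K20me3 lists used here give where each broad peak starts and ends on hg38, with neither scores nor reads. The authors' tools were bedtools 2.30.0, Bowtie, cutadapt 4.4 and Picard 2.27.3, per the submitters' processing notes; the peak caller is not given in the sources used here. Per the labels, peaks were called for each library alone after duplicate removal. Deposited peaks end on a 1000 bp grid, the narrowest is 5 kb wide and the smallest gap 2 kb. Depth is unknown. Gene spans and promoters came from RefSeq tables of GRCh38.p14 without exons; 190 coding genes on other sequences were left out. Members and lists were chosen with earlier results of these data known. Differences of group means were tested by two-sided exact permutation over 35 assignments (Python 3.11.15, NumPy 2.4.6), with Benjamini-Hochberg adjustment over 5 library measures or 23 chromosomes (no Y) and a threshold of 0.05. Named genes were the 10 siNC-only and the 10 DMSO-only with the longest covered length, the 5 largest differences in each direction among other genes whose groups did not overlap, up to 4 members per list and state, and KMT5B and KMT5C; some genes that this rule names are not reported here. On simulated lists, 200 of 200 inserted and 200 of 200 removed regions were recovered. All simulated lists shared the peak ends of a single DMSO list, and these regions were spared from random loss. Recovery was thus fixed by the design: it checks the counting and not how well real one-state regions are found. Alternatives covered the peaks used, the presence and overlap rules, group medians, chromosome 14 and single libraries left out. The labels pair no siNC replicate with a DMSO replicate.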

Additional observations from a re-analysis of the deposited data

Results flagged for a closer look

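In a group of 4 libraries, a value was looked at again where its gap to the nearest other took up more of the whole range than Dixon's 95% limit allows. Of 4 library measures, 23 chromosomes and 32 named genes tested this way in siNC, 3 values passed; chance gives about 1 in 20. Replicate 4 had 7.02 Mb under peaks on chromosome 9 where the others had 7.29 Mb or just below. Replicate 1 had 6.61 Mb on chromosome 10 where the others had 6.74 to 6.76 Mb. Replicate 4 had 28 kb over VPS13B where the others had 49 or 50 kb. All 3 values stayed above every DMSO library.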

How the results depend on the processing

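Limits of these lists come first: depth and enrichment per library are unknown, signal below the calling threshold leaves no peak, and changes under 1 kb are not visible. Leaving out 1 library left the direction of the tested measures unchanged, but no such test could pass (smallest exact permutation p = 0.0667 or 0.1). Over the 7 omissions the log2 difference of covered length ranged from 0.33 to 0.36, that of peak number from 5377 to 5682, of wide peaks from -146.8 to -126.2, of marked genes from 810 to 852 and of promoter windows from -167.5 to -115.5. The siNC-only regions ranged from 3433 to 3625, the DMSO-only regions from 460 to 649, the siNC-only genes from 674 to 723, the DMSO-only genes from 150 to 177, and 0 chromosomes could pass by length or by share. By covered length, 20 or 21 chromosomes still had every siNC above every DMSO library.

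Numbered replicates gave no pairing: the deviations of same-numbered libraries over 11079 windows of 100 kb correlated at -0.0017, -0.0174 and -0.0615. With a replicate block (3 pairs, siNC replicate 4 left out, exact sign-flip p = 0.25 at best) the differences were 0.35, 5682, -135.7 wide peaks, 847 marked genes and -135.7 promoter windows. Group medians gave 0.35 (exact permutation p = 0.114), 5429 peaks (p = 0.114), -132 wide peaks (p = 0.0571), 807.5 marked genes (p = 0.114) and -143.5 promoter windows (p = 0.0857), and 0 chromosomes passed by length or share.

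With peaks of at least 10 kb, median width differed by -2.75 kb (exact permutation p = 0.0286), 1465 regions, 377 genes and 24.1 Mb were siNC-only, and covered length was higher on 13 chromosomes and lower on 1. With the widest peaks up to equal covered length, the difference was -35.4 peaks (exact permutation p = 0.971) and -127.7 marked genes (p = 0.171). Median width differed by 2.17 kb (exact permutation p = 0.0286, adjusted p = 0.0571). Promoter windows differed by -276.75 (exact permutation p = 0.0286). The -138.2 wide peaks could not change, since this rule keeps every wide peak. Then 862 regions, 175 genes, 44 promoter windows and 19.3 Mb were siNC-only, and 911 regions, 281 genes, 192 promoter windows and 22.3 Mb DMSO-only. By length 6 chromosomes were higher and 8 lower, and 0 by share, although the share of chromosome 14 still differed by 3.12 percentage points. This rule took more length from the siNC lists, at 183 to 193 Mb in full, than from the DMSO lists, at 145 to 153 Mb. The part of that in the turned counts was not tested. When presence was asked of all but 1 library of a state, DMSO-only calls were 900 regions, 225 genes, 275 promoter windows and 27.7 Mb. Merging peaks or regions within 5 kb, leaving out chromosome 14, dropping the gene flanks or asking for an overlap of 1000 bp or 5 kb left each tested library measure on its side of the threshold and each count of regions, genes and windows within 1.5 times. Of the 39 named siNC-only and 39 named DMSO-only genes, 23 and 15 lost their call with peaks of at least 10 kb, 0 and 6 with 1000 bp of overlap, and 6 and 17 with 5 kb. Promoter windows, the start site profile and the single chromosome values were added after the data were seen.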
